A study of Mus musculus with 6 samples.

Results

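Nuclear genes of the mitochondrial respiratory chain and ATP synthase were followed in mouse neural progenitor cells grown with paraquat (PQ), with N-acetylcysteine (NAC) or with neither. Genes were chosen by symbol, those beginning with Ndufa, Ndufb, Ndufc, Ndufs, Ndufv, Sdha to Sdhd, Uqcr, Cyc1, Cox4i, Cox5 to Cox8 or Atp5, with a mean level over the 6 RNA-seq libraries of at least 1 FPKM (FPKM counts fragments scaled by transcript length and library size). RefSeq holds 101 protein-coding mouse genes with such symbols. Of these, 96 were listed in at least 1 library and 91 passed the level, out of 11717 genes of any kind that passed it and 17254 that were listed. The 91 genes comprise 78 subunits, 12 assembly factors that share the prefixes, and Cox7a2l, a factor that joins complexes III and IV into supercomplexes. The subunits divide into 36 of complex I, 4 of complex II, 9 of complex III, 12 of complex IV and 17 of complex V (ATP synthase), with Ndufa4 counted in complex IV, where its protein is found.

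The gene just inside the level was Cox7a1, at a mean of 2.23 FPKM, and the gene just outside it was Cox6a2, at 0.382 FPKM. With Cox6a2, the listed genes under the level were Cox4i2, Cox6b2 and Cox8b, which are isoforms used in other tissues, and Ndufa4l2, a relative of Ndufa4. Cox6a2 had at most 6 counts in a library, and the other 4 had at most 3. Cox7b2, Cox8c, Ndufb1, Ndufb4b and Ndufb4c were listed in no library.

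Complexes I and II pass electrons from NADH and succinate to ubiquinone, complex III passes them on to cytochrome c, complex IV hands them to oxygen, and complex V uses the proton gradient so made to form ATP. Most subunits are encoded in the nucleus and imported, a small set is encoded in mitochondrial DNA, and neural stem cells are known for leaning more on glycolysis than the neurons they give rise to. PQ is a herbicide that takes up electrons inside the cell, from complex I among other sources, and passes them to oxygen to form superoxide, while NAC is a thiol that serves as an antioxidant and a source of cysteine for glutathione.

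RNA was sequenced after 48 h from untreated cells (control), cells given PQ and cells given NAC, with 2 libraries in each group. In the first deposit (control 1 and PQ 1) the labels give the strain C57BL/6, a genotype spelled Ink/Ark knockout, EGF and bFGF at 20 ng/ml each and PQ at 5 µM. The second deposit (control 2, PQ 2, NAC 1 and NAC 2) is labelled by cell type and treatment, with no genotype or strain. By the study's methods the culture came from neonates, was immortalized by loss of Ink/Arf and was a mixture of stem and progenitor cells, so no group is a pure cell type or free of that deletion. PQ against control asks what an oxidant does to the cells, NAC against control what an antioxidant does, and PQ against NAC sets the 2 treatments side by side. The 3 comparisons share libraries, so their values are given side by side. Per library, the total expected count (the estimated number of fragments assigned to genes) was 9849392 in control 1 and 10040827 in control 2, 10388731 in PQ 1 and 9680436 in PQ 2, and 10698241 in NAC 1 and 9907726 in NAC 2. The labels give different extraction kits, sequencers and pipelines for the deposits. Since NAC was sequenced in the second deposit only, its difference from control 1 or PQ 1 and the difference between deposits cannot be told apart. Medians within each deposit are given for the subunits, each complex and the assembly factors. Nothing in the labels says that the 2 libraries of a group came from separate cultures, so a p-value measures a spread that may be technical. For control and PQ that spread also holds the difference between deposits, since each has a library in both. The main fit had no term for the deposit.

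On the FPKM scale, which allows for transcript length, the median subunit had a mean level of 108 FPKM against 12.8 FPKM for all genes tested. Complex I had the lowest median level, 72.8 FPKM, and ranged from 9.05 FPKM for Ndufa11 to 294 FPKM for Ndufa12, an accessory subunit next to the NADH-binding end. Complex II had a median of 89.6 FPKM, with Sdhb, its iron-sulfur subunit, the most abundant at 106 FPKM. Median levels were higher in the complexes that follow, at 158 FPKM in complex III, 212 FPKM in complex IV and 189 FPKM in complex V. Their most abundant genes were Uqcrh, the hinge protein beside cytochrome c1, at 378 FPKM, Cox8a, a small membrane subunit of cytochrome c oxidase, at 337 FPKM, and Atp5b, the catalytic beta subunit, at 693 FPKM. All but 2 of the 78 subunits, Ndufa11 and Cox7a1, lay above the median of all genes. Assembly factors had a median of only 10.2 FPKM, and 3 of 12 lay above it. Added up over the subunits, the level was 11615 FPKM in control 1 and 10993 in control 2, 12357 in PQ 1 and 11961 in PQ 2, and 10763 in NAC 1 and 11104 in NAC 2. On that scale the PQ libraries stood above the others, while 1 NAC library lay between the controls. Summed instead in CPM, counts scaled by library size and edgeR's TMM factors, the subunits gave 10090 in control 1 and 9661 in control 2. The sums were 10200 in PQ 1, 10000 in PQ 2, 9033 in NAC 1 and 9126 in NAC 2. On the CPM scale PQ 2 thus lay between the controls and both NAC libraries lay below them.

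**Figure D1:**
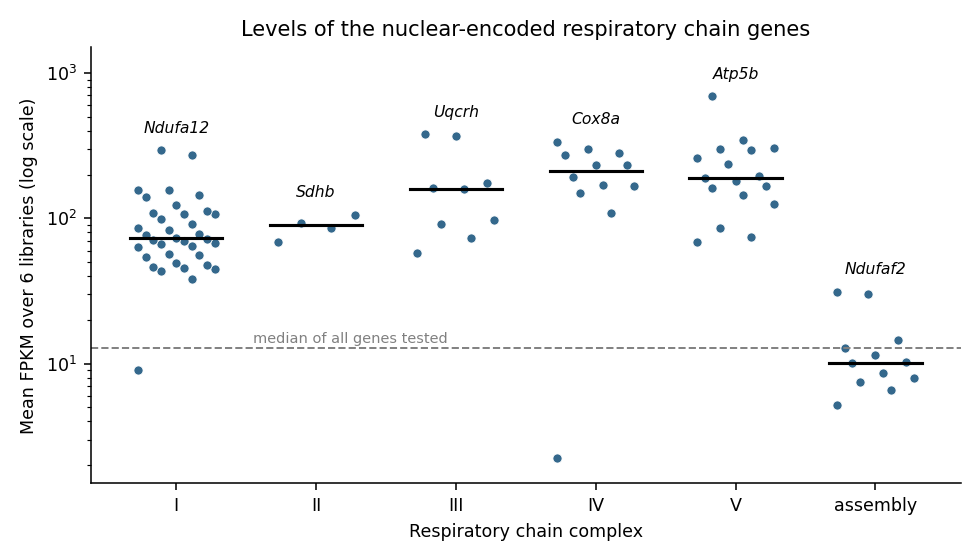
Mean FPKM over the 6 libraries (log axis) of each member, except Cox7a2l, by complex, with the median of each group as a bar and the median of all 11717 genes tested as a dashed line. Subunits of every complex lie mostly above that line, and 9 of the 12 assembly factors lie under it.

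A gene was called changed when edgeR's quasi-likelihood test over all 6 libraries gave an adjusted p under 0.05. In PQ against control, 5 of the 91 members were called higher, 5.49%, and 0 lower, while among all genes tested 9.76% were higher, 9.45% lower and 19.2% either. DESeq2 called 5 higher (5.49%, beside 7.03% of all genes) and 0 lower (beside 7.25%), and limma 10 higher (11%, beside 8.36%) and 0 lower (beside 6.19%), so that the share of higher calls was under that of all genes with edgeR and DESeq2 and over it with limma. edgeR's unadjusted p was under 0.05 for 13 of 91 higher and 3 lower, beside 1879 and 1823 of 11717 genes. In NAC against control, 0 members were higher and 6 lower, 6.59%, beside 9.01% higher, 9.64% lower and 18.7% either among all genes. There DESeq2 called 0 higher (beside 6.78%) and 5 lower (5.49%, beside 7.69%), and limma 1 higher (beside 8.5%) and 5 lower (5.49%, beside 6.29%). The unadjusted p of edgeR was under 0.05 for 1 of 91 higher and 18 lower, beside 1777 and 1882 of 11717 genes. In PQ against NAC, 18 members were higher, 19.8%, and 2 lower, 2.2%, beside 16.0%, 15.7% and 31.6% among all genes. DESeq2 called 16 higher there (17.6%, beside 12.9%) and 2 lower (2.2%, beside 12.2%). With limma, 14 were higher (15.4%, beside 13.1%) and 1 lower (beside 14% of all genes). Of the 91 members, 22 were called in at least 1 comparison and 69 in none. The standard error of a member's log2 fold change had a median of 0.108 and went up to 0.788 for the scarce Cox7a1.

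These counts changed when a library was left out, which also leaves a group of 1. In PQ against control, edgeR called 0 members without PQ 1, with 11 at an unadjusted p under 0.05, and the share of all genes called fell to 7.39%. The other tools were not run without that library. NAC against control gave 12 members without control 2 (13.2%, beside 18.1% of all genes) and 3 without NAC 2 (3.3%, beside 12.2%). For PQ against NAC the count was 11 without PQ 1 (12.1%, beside 20.0%) and 13 without NAC 1 (14.3%, beside 20.3%). With the deposit as a block the members called were 6, 4 and 12 in the 3 comparisons, in place of 5, 6 and 20, beside 17.6%, 14.4% and 24.8% of all genes, in place of 19.2%, 18.7% and 31.6%. The second deposit holds 1 control and 1 PQ library, so in fits of it alone, as in those without a library, the spread of a group of 1 is taken from the other groups.

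Shifts of the subunits as a group were small. The median log2 fold change of the 78 subunits was 0.061 in PQ against control, -0.086 in NAC against control and 0.155 in PQ against NAC, where the median of all genes was -0.001, -0.002 and 0. By sign, 48 of 78 subunits were above 0 in PQ against control (5834 of 11717 genes), 62 of 78 below 0 in NAC against control (5891 of 11717) and 64 of 78 above 0 in PQ against NAC (5864 of 11717). Relative to the mean of the controls, the subunits' median log2 level was 0.037 in control 1, -0.037 in control 2, 0.044 in PQ 1, 0.036 in PQ 2, -0.110 in NAC 1 and -0.103 in NAC 2. Both NAC libraries thus sat below the other 4, and the PQ libraries met control 1. Within deposits, the subunits' median for PQ minus control was -0.023 in the first (35 up, 43 down) and 0.084 in the second (49 up, 29 down), so the PQ shift did not hold in both. NAC minus control in the second deposit gave -0.069 (27 up, 51 down), and PQ minus NAC gave 0.139 (61 up, 17 down). Leaving out control 2 took the PQ median to -0.028 and the NAC median to -0.154, and leaving out control 1 took the PQ median to 0.105. Control 1 was higher than control 2 in 52 of the 78 subunits. None of the 3 subunit medians changed sign under DESeq2's size factors, upper quartiles or library totals, though with library totals the NAC median shrank to -0.041 and that of all genes moved to 0.044. In bulk samples, fewer cells of a type and less RNA per cell cannot be told apart.

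**Figure D2:**
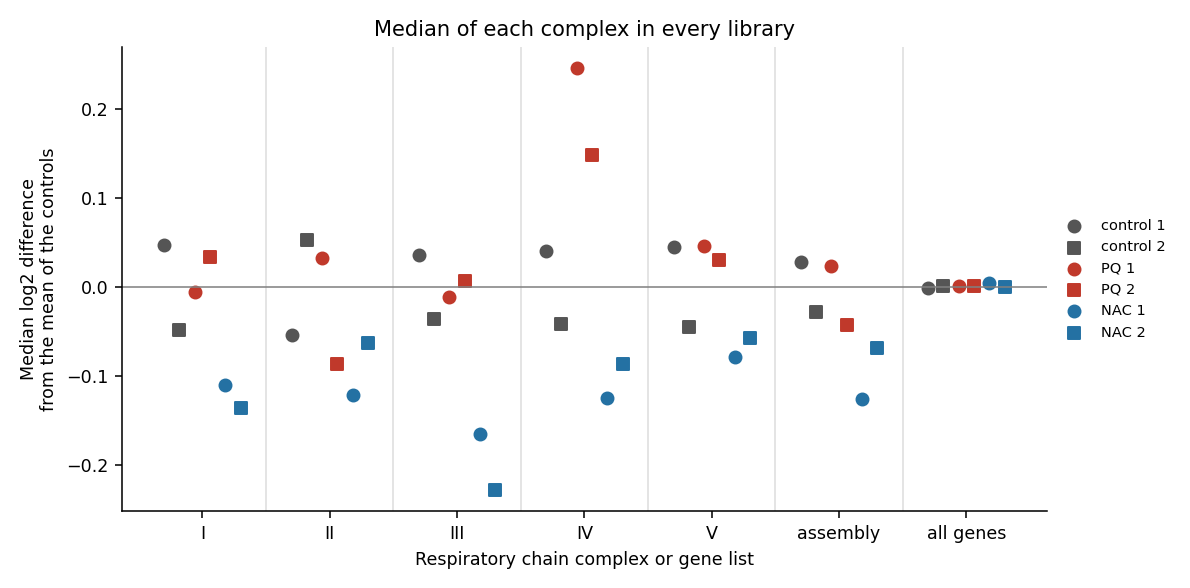
Median log2 level of each complex, of the assembly factors and of all genes in each library, relative to the mean of the 2 controls (circles replicate 1, squares replicate 2). Both NAC libraries lie below 0 in every complex, and complex IV is the highest group in both PQ libraries.

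**Figure D3:**
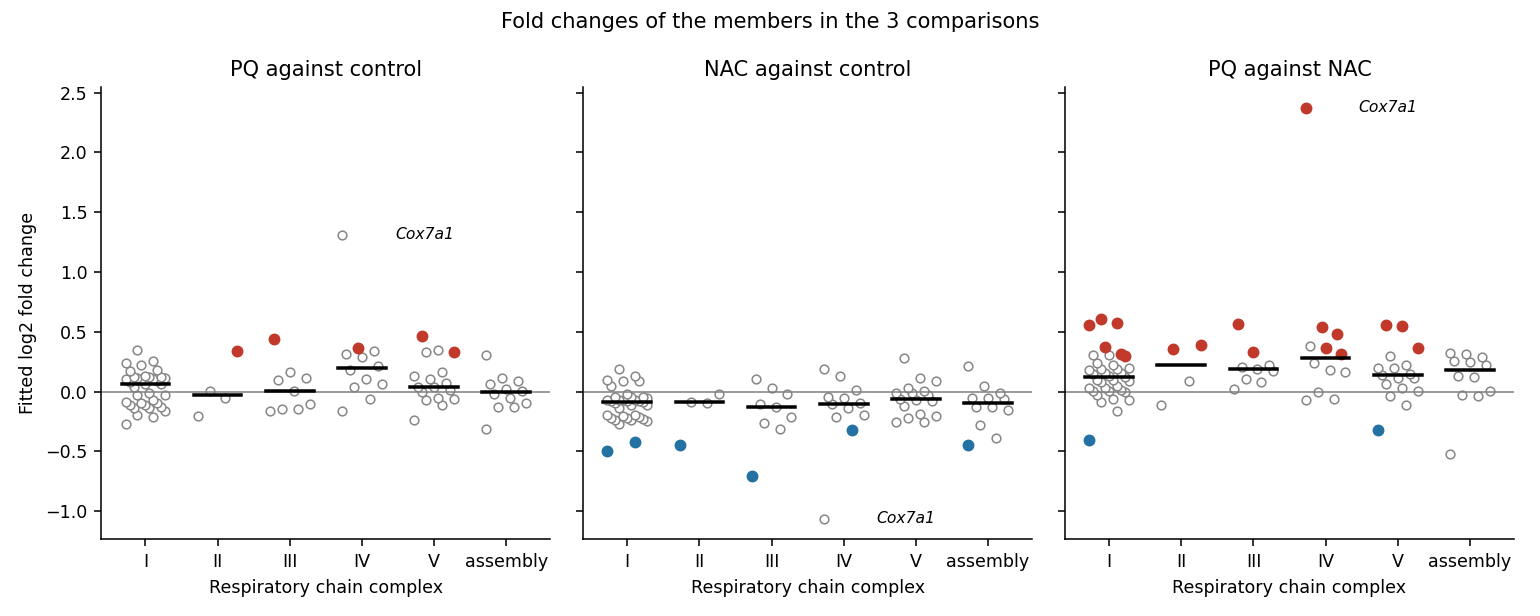
Log2 fold change of every subunit and assembly factor in the 3 comparisons, grouped by complex, with filled points for an adjusted p under 0.05 (red higher, blue lower) and a bar at each median. Filled points number 5 in PQ against control, 6 in NAC against control and 20 in PQ against NAC.

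The 5 members that rose with PQ came from complexes II to V: Sdhd, Uqcrh, Cox6b1, Atp5md and Atp5l. Both PQ libraries lay above both controls in all 5 genes, so PQ minus control within each deposit could only be above 0 for them. Their promoters are shown because the genes share a call with PQ, for which they were picked, and because promoters of respiratory chain genes are known for binding sites of ETS-family factors, NRF1 and YY1. RefSeq promoters on GRCm38.p6, from 250 bases before to 50 after the start of transcription, were at hand for 77 of the 91 members. Both strands were searched for CCGGAAG (an ETS core, reverse complement CTTCCGG), GCGCATGCG (NRF1, CGCATGCGC) and AAGATGGC (YY1, GCCATCTT). In each window, read 5′ to 3′ along the gene, capitals mark CCGGAAG or GCGCATGCG or the reverse complement of either. The windows are chr9:50603800-50604099 (minus strand) for Sdhd, chr4:116075021-116075320 (minus strand) for Uqcrh, chr7:30626065-30626364 (minus strand) for Cox6b1, chr19:47090598-47090897 (minus strand) for Atp5md and chr9:44920693-44920992 (minus strand) for Atp5l.
Sdhd: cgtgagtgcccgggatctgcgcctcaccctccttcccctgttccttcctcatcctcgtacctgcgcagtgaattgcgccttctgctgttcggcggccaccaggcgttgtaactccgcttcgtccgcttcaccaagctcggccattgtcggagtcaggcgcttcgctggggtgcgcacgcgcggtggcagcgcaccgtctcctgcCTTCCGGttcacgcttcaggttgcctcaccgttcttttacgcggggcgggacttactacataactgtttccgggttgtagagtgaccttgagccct
Uqcrh: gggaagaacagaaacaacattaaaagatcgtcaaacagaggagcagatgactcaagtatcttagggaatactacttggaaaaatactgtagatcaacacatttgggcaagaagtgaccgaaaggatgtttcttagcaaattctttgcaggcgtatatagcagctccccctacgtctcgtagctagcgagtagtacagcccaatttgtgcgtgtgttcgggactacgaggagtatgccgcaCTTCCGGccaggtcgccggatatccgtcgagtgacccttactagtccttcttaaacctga
Cox6b1: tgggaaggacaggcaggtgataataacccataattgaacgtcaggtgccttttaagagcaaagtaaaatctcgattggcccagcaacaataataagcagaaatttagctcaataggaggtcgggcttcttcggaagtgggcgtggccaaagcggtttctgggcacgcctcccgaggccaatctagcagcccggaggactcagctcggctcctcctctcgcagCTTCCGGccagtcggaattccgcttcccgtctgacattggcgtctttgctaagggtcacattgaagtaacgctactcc
Atp5md: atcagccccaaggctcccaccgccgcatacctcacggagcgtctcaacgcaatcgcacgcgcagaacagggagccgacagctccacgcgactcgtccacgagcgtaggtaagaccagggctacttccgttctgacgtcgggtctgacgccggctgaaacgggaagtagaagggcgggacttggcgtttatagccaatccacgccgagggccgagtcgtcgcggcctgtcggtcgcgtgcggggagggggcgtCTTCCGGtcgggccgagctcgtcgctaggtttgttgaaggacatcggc
Atp5l: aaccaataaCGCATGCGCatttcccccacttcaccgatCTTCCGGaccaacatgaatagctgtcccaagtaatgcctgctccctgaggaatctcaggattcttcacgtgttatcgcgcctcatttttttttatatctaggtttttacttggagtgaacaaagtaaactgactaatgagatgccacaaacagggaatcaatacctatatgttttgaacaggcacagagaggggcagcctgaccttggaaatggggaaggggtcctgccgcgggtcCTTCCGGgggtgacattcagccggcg

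All 5 windows hold the ETS letters, each as CTTCCGG, with 2 copies in Atp5l beside its NRF1 letters. Of all 32851 promoters in the table, 8.86% hold CCGGAAG on either strand, 1.75% hold GCGCATGCG and 2.75% hold AAGATGGC. Counted by gene, CCGGAAG was in 22 of the 77 members with an entry (28.6%), GCGCATGCG in 10 (13.0%) and AAGATGGC in 11 (14.3%), against 9.93%, 1.95% and 3.19% of the 27025 genes in the table. The YY1 letters are in 0 of the 5. Of members higher in PQ against NAC, 7 of 16 with an entry hold the ETS letters (43.8%) and 0 the YY1 letters. Of the 2 lower, 0 hold either. The 7 include Sdhd, Uqcrh, Atp5md and Atp5l from the 5 above, beside Sdhb, Ndufb6 and Cox8a, so the sets are not separate. Among the 6 members that fell with NAC, Sdhb, Ndufb6 and Sdhaf1 hold the ETS letters, Ndufv3 and Cox7b do not, and Uqcrq has no entry. Other members with no entry include Atp5a1, Atp5mpl, Cox4i1, Cox6c, Cyc1, Ndufa2, Ndufaf6, Ndufb9, Ndufs1, Sdhc, Uqcrb and Uqcrc2. A match says that the letters are present and nothing about binding.

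Complex I takes electrons from NADH through a flavin and a chain of iron-sulfur clusters, held by its 7 nuclear core subunits, and 29 accessory subunits surround the core. In PQ against control edgeR called 0 of the 36 higher or lower, beside 19.2% of all genes. At an unadjusted p under 0.05, 1 was higher and 1 lower, beside 1879 and 1823 of 11717 genes. There DESeq2 called 0 (beside 14.3%) and limma 1 higher (beside 8.36%). Median log2 fold changes were 0.061 with PQ, -0.085 with NAC and 0.126 for PQ against NAC, but the PQ median was -0.077 within the first deposit and 0.049 within the second, where the NAC median was -0.069. Core and accessory subunits sat at different medians, a difference that was not tested. The core median was -0.139 in PQ against control (6 of 7 below 0) and -0.215 in NAC against control (7 of 7), and the accessory median was 0.090 and -0.074. By library, the core median was 0.043 and -0.043 in the controls, -0.111 and -0.144 with PQ and -0.146 and -0.196 with NAC. Both treated groups lay below both controls, and within the deposits PQ minus control was -0.144 in the first and -0.073 in the second. The accessory median changed sign between deposits, with PQ minus control at -0.064 in the first (11 up, 18 down) and 0.136 in the second (20 up, 9 down). NAC minus control in the second deposit was -0.083 for the core and -0.033 for the accessory subunits. edgeR nevertheless called 0 of the 7 core subunits in either comparison with control, beside 19.2% of all genes with PQ and 18.7% with NAC. At an unadjusted p under 0.05 there were 0 for PQ and 1 lower for NAC, and neither DESeq2 nor limma called any. In the second deposit alone Ndufs7, a core subunit, passed as lower with PQ (0.047), with 1 library against 1 and a difference of only -0.039 in the first deposit, and without control 2 Ndufs1 (0.027) and Ndufv2 (0.019) passed as lower with NAC.

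Ndufv3 (gene 78330), a small accessory subunit of the NADH-binding flavoprotein, was measured at 152 CPM (counts scaled by library size and edgeR's TMM factors) in control 1, 165 in control 2, 169 and 166 in PQ 1 and PQ 2, and 108 and 117 in NAC 1 and NAC 2. The NAC libraries lay below the other 4, which were close together. Ndufv3 fell by 0.495 on the log2 scale in NAC against control (SE 0.096, adjusted p 0.0011) and was higher by 0.57 in PQ against NAC (SE 0.096, adjusted p 0.00016), calls that stood whichever library was left out. Its PQ minus control difference was 0.15 in the first deposit and 0.005 in the second. Ndufb6 (gene 230075), an accessory subunit of the membrane arm, had 30.6 and 29.5 CPM in the controls, 31.0 and 37.3 with PQ, and 22.6 and 22.3 with NAC. Again both NAC libraries were the lowest. It fell by 0.42 in NAC against control (SE 0.132, adjusted p 0.031) and was higher by 0.605 in PQ against NAC (SE 0.131, adjusted p 0.0015). The NAC call was lost without control 1 (adjusted p 0.092), NAC 1 (0.13) or NAC 2 (0.14), with DESeq2 (0.080), with library totals (0.052) and in the second deposit alone (0.097).

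Ndufs1 (gene 227197), the core subunit with the most iron-sulfur clusters, had 199 and 164 CPM in the controls, 188 and 200 with PQ, and 163 and 149 with NAC. The control libraries spanned most of that range, and NAC lay just under the lower one. PQ against NAC gave 0.31 (SE 0.104, adjusted p 0.029), lost without PQ 1 (0.069), PQ 2 (0.18), NAC 1 (0.054) or NAC 2 (0.20), with the deposit as a block (0.12) and with limma (0.069), and NAC against control passed only without control 2 (0.027). Some fragments of Ndufs1 were shared with other genes, as its fractional counts show, so its level is less certain. Ndufv1 (gene 17995), the core subunit that binds NADH, had 95.5 and 88.2 CPM in the controls, 84.9 and 79.1 with PQ, and 89.1 and 83.6 with NAC. PQ lay under the controls without passing the test (log2 -0.16, adjusted p 0.28), and NAC overlapped them. Ndufa12 (gene 66414) had 171.5 and 139 CPM in the controls, 171.6 and 165 with PQ, and 144 and 150 with NAC, all within the span of the controls or next to it, and passed in no comparison.

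The other complex I calls were in PQ against NAC, and the genes were chosen for naming after their values were seen. Ndufa1 was at 28.5 and 29.6 CPM with PQ and 19.2 and 20.4 with NAC (log2 0.55, adjusted p 0.0041), with the controls between at 24.5 and 21.2. Ndufb11 ran the other way, 64.0 and 66.1 CPM with PQ and 84.1 and 88.2 with NAC (log2 -0.405, adjusted p 0.0036), with the controls between at 73.5 and 77.3. Both are accessory subunits of the membrane arm, and both calls stood whichever library was left out. Ndufa11, another of the membrane arm, was higher by 0.37 (adjusted p 0.041) and lost the call without PQ 1 (0.29), PQ 2 (0.054), NAC 1 (0.17) or NAC 2 (0.12), with the block (0.15), DESeq2 (0.11), limma (0.056) or library totals (0.056), and in the second deposit alone (0.26). Ndufa6, an accessory subunit of the matrix arm, was higher by 0.30 (adjusted p 0.044) and lost it without PQ 1 (0.13), PQ 2 (0.16), NAC 1 (0.15) or NAC 2 (0.14), with the block (0.20), DESeq2 (0.081), limma (0.077) or library totals (0.056), and in the second deposit alone (0.063). Without control 2 it passed as lower in NAC against control (0.019). The remaining 29 subunits were called in no comparison and ran from -0.27 for Ndufs7 to 0.235 for Ndufa3 in PQ against control, from -0.27 for Ndufs7 to 0.13 for Ndufa7 in NAC against control, and from -0.16 for Ndufb7 to 0.31 for Ndufb2 in PQ against NAC.

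Complex II, which is also the succinate dehydrogenase of the TCA cycle, has no mitochondrially encoded subunit. Of its 4 genes, 2 were above 0 in PQ against control, 0 in NAC against control and 3 in PQ against NAC. Sdhd (gene 66925), a membrane anchor, had 75.9 and 85.3 CPM in the controls, 98.3 and 105 with PQ, and 77.8 and 81.2 with NAC. The PQ libraries stood above all others. Sdhd rose by 0.34 in PQ against control (SE 0.1, adjusted p 0.024) and was higher by 0.36 in PQ against NAC (SE 0.1, adjusted p 0.010), with differences of 0.37 and 0.30 within the deposits. The first call was lost without control 1 (0.15), PQ 1 (0.079) or PQ 2 (0.17) and in the second deposit alone (0.21), and the second without PQ 2 (0.10) or NAC 1 (0.084). Sdhb (gene 67680) had 124 and 128 CPM in the controls, 123 and 120 with PQ, and 91.6 and 93.9 with NAC. Here NAC was apart and PQ was next to control. Sdhb fell by 0.44 in NAC against control (SE 0.093, adjusted p 0.0022) and was higher by 0.39 in PQ against NAC (SE 0.093, adjusted p 0.0035), whichever library was left out.

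Sdha (gene 66945), the flavoprotein that oxidises succinate, had 261 and 266 CPM in the controls, 236 and 221 with PQ, and 254.5 and 239 with NAC. Its PQ libraries were the lowest, without passing the test (log2 -0.21, adjusted p 0.12). Sdhc (gene 66052), the other membrane anchor, had 104 and 117 CPM in the controls, 119 and 103 with PQ, and 96.6 and 112 with NAC, and all groups overlapped. As a set, the complex II genes had a median of -0.025 in PQ against control, which turned to 0.002 with library totals, of -0.090 in NAC against control and of 0.222 in PQ against NAC. Within deposits, PQ minus control had a median of 0.086 in the first and -0.139 in the second, so its sign changed, and NAC minus control in the second was -0.138.

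Complex III moves electrons from ubiquinol to cytochrome c. Uqcrh (gene 66576) had 181 and 171 CPM in the controls, 241 and 236 with PQ, and 175 and 205 with NAC. PQ stood above the rest, and NAC reached from the controls to above them. Uqcrh rose by 0.44 in PQ against control (SE 0.098, adjusted p 0.0040) and was higher by 0.33 in PQ against NAC (SE 0.098, adjusted p 0.014). Within the deposits PQ minus control was 0.41 and 0.47, yet the call was lost without PQ 1 (0.052), and that against NAC without PQ 1 (0.092), PQ 2 (0.065) or NAC 1 (0.20) and with the deposit as a block (0.069). Uqcrq (gene 22272), a small subunit near ubiquinone's site, had 97.7 and 88.8 CPM in the controls, 84.4 and 84.4 with PQ, and 52.1 and 62.0 with NAC. Its NAC libraries were well under all others, and it had the largest change of the complex. Uqcrq fell by 0.71 in NAC against control (SE 0.107, adjusted p 9.3e-05) and was higher by 0.565 in PQ against NAC (SE 0.107, adjusted p 0.00051), whichever library was left out.

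Cyc1 (gene 66445), cytochrome c1, had 90.0 and 100 CPM in the controls, 94.2 and 77.8 with PQ, and 72.2 and 81.0 with NAC. NAC lay below the controls, and the PQ libraries were far apart. Cyc1 missed the threshold in NAC against control (log2 -0.31, adjusted p 0.059) and passed it without control 1 (0.030), with no filter (0.032) and in the second deposit alone (0.022, with 1 control). Uqcrfs1 (gene 66694), the Rieske iron-sulfur protein, had 75.1 and 83.0 CPM in the controls, 67.8 and 79.2 with PQ, and 69.9 and 74.5 with NAC, with overlap between PQ and both other groups. The 7 subunits called in no comparison ran from -0.16 for Uqcrc1 to 0.17 for Uqcr11 with PQ and from -0.31 for Cyc1 to 0.03 for Uqcr10 with NAC. Over the 9 subunits the median was 0.007 in PQ against control, -0.132 in NAC against control and 0.185 in PQ against NAC, in which all 9 were above 0. Within deposits the PQ median also changed sign, at -0.054 in the first and 0.043 in the second, and the NAC median in the second was -0.172.

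**Figure D4:**
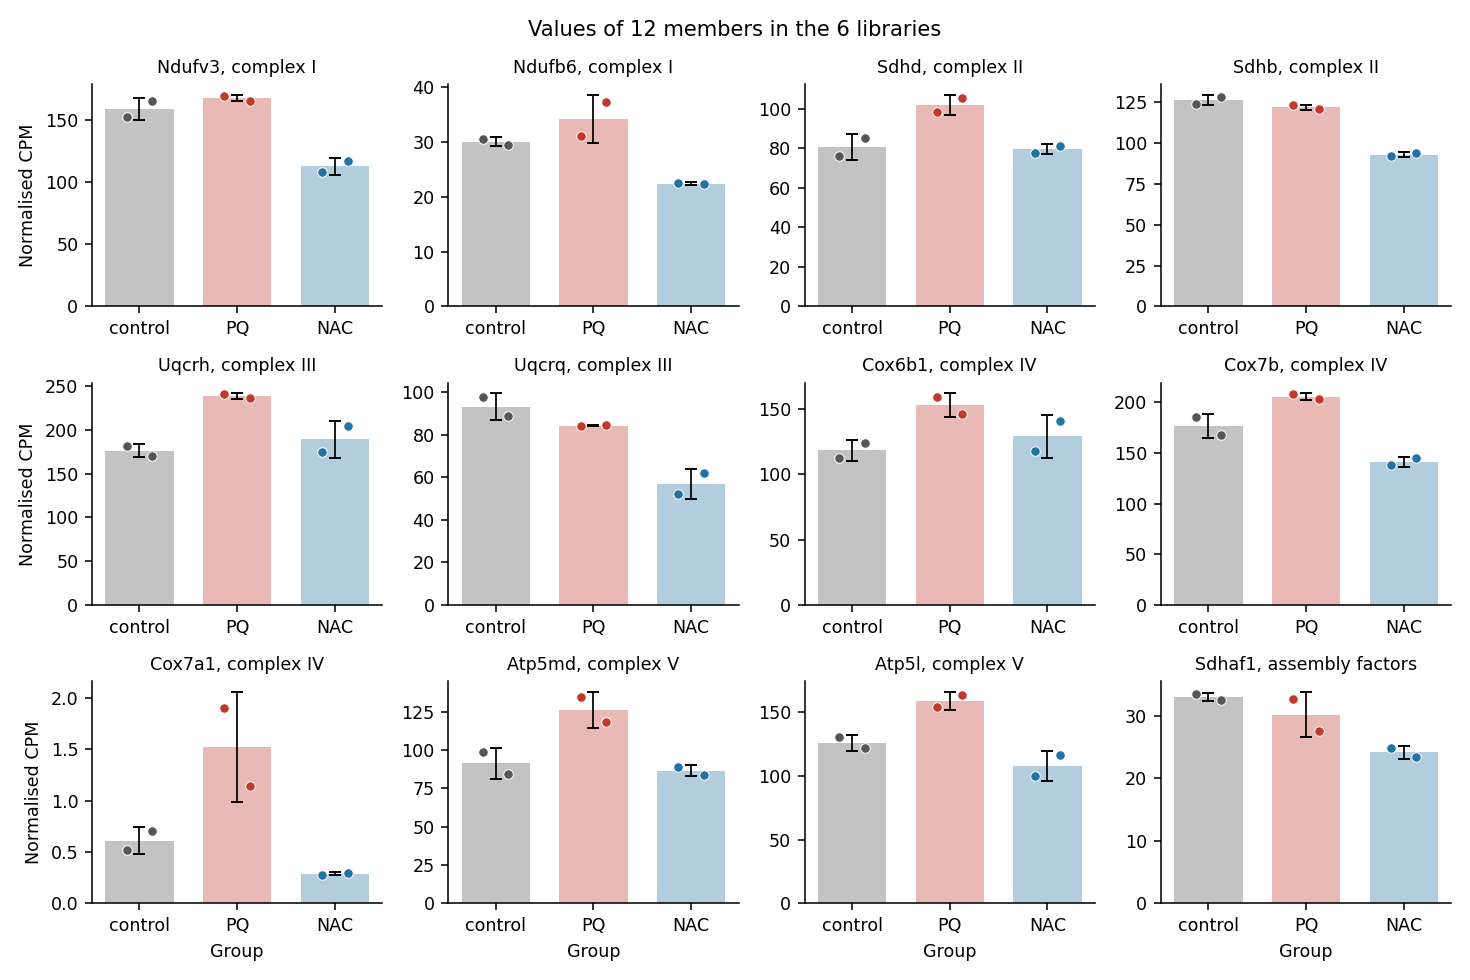
TMM-scaled CPM of 12 members in each library (left dot replicate 1, right dot replicate 2), with bars at the group mean and error bars of 1 SD over 2 libraries. In Sdhd, Uqcrh, Cox6b1, Atp5md and Atp5l both PQ dots lie above both control dots. In Ndufv3, Ndufb6, Sdhb, Uqcrq, Cox7b and Sdhaf1 both NAC dots lie below them. For all of these but Sdhaf1, that separation was a condition of being named for a large change.

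Complex IV passes electrons to oxygen, and its nuclear subunits wrap a core made in the mitochondrion. It had the highest PQ median, 0.200 in PQ against control with 10 of 12 subunits above 0, against -0.100 in NAC against control and 0.276 in PQ against NAC. Within the first deposit PQ minus control had a median of 0.129 and within the second 0.186, and 9 of the 12 were above 0 in both, while NAC minus control in the second was -0.079. By library the median was 0.041 and -0.041 in the controls, 0.246 and 0.149 with PQ, and -0.124 and -0.086 with NAC, so that the groups were apart. Counting Ndufa4 with complex I instead raised the PQ against NAC median to 0.311.

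Cox6b1 (gene 110323), which links the monomers on the outer side of the membrane, had 113 and 124 CPM in the controls, 159 and 146 with PQ, and 118 and 141 with NAC. PQ was highest, and NAC spread over the gap. Cox6b1 rose by 0.37 in PQ against control (SE 0.106, adjusted p 0.020), lost without control 1 (0.095) or PQ 1 (0.20) and in the second deposit alone (0.36), and passed in PQ against NAC only without NAC 2 (0.037). Its testis isoform Cox6b2 had 3 counts in control 2 and 3 in PQ 2 and none elsewhere. Cox7b (gene 66142), a small membrane subunit, had 185 and 168 CPM in the controls, 208 and 203 with PQ, and 138 and 144.5 with NAC. The 3 groups were apart, with NAC lowest. It fell by 0.32 in NAC against control (SE 0.094, adjusted p 0.021) and was higher by 0.54 in PQ against NAC (SE 0.094, adjusted p 0.00023). The first of these calls was lost without control 1 (0.12), NAC 1 (0.15) or NAC 2 (0.065), with limma (0.061), with the deposit as a block (0.12) and in the second deposit alone (0.17), and the second stood whichever library was left out.

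Cox7a1 (gene 12865), the heart and muscle isoform of subunit 7a, was the scarcest member, with 5 and 7 counts in the controls, 20 and 11 with PQ and 3 and 3 with NAC. In CPM this was 0.519 and 0.705 in the controls, 1.90 and 1.15 with PQ, and 0.278 and 0.297 with NAC. The groups were apart, on few counts. PQ against NAC gave a log2 fold change of 2.37 (SE 0.644, adjusted p 0.0085), lost without PQ 1 (0.13) or NAC 1 (0.054) and in the second deposit alone (0.079). Neither comparison with control passed, though limma called it higher with PQ (0.019). Cox7a2 (gene 12866), the isoform of most tissues and the more abundant here at 108 FPKM, had 80.9 and 72.0 CPM in the controls, 95.3 and 91.1 with PQ, and 68.4 and 65.3 with NAC. It moved in the same order at a smaller scale, higher by 0.48 in PQ against NAC (SE 0.1, adjusted p 0.0012) whichever library was left out. In PQ against control it missed the threshold (log2 0.285, adjusted p 0.052) and passed without control 1 (0.031), with library totals (0.034), upper quartiles (0.044), limma (0.046) or a mean FPKM of at least 5 (0.041). Cox7a2l (gene 20463), at 168 and 171 CPM in the controls, 150 and 165 with PQ and 156 and 159 with NAC, passed in no comparison.

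Cox8a (gene 12868), the only form of subunit 8 that passed the level, had 177 and 149 CPM in the controls, 219 and 185 with PQ, and 144 and 170 with NAC. Replicates were wide apart in every group. Cox8a was higher by 0.365 in PQ against NAC (SE 0.113, adjusted p 0.019), lost without PQ 1 (0.24) or NAC 1 (0.22), with limma (0.072), with the deposit as a block (0.16) and in the second deposit alone (0.14). In PQ against control it passed as higher without control 1 (0.014) or PQ 2 (0.048), with library totals (0.042), with no filter (0.021) and with the block (0.049). Cox8b had 2 counts, both in NAC 2, and Cox8c was not listed. Cox5a, a matrix-side subunit chosen for naming after its values were seen, had 118 and 115 CPM in the controls, 126 and 124 with PQ, and 98.3 and 104 with NAC. It was higher by 0.31 in PQ against NAC (adjusted p 0.016), lost without PQ 1 (0.10), PQ 2 (0.075) or NAC 1 (0.12), with the block (0.069) and in the second deposit alone (0.063).

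Cox4i1 (gene 12857), the common form of the largest nuclear subunit, had 159 and 165 CPM in the controls, 147 and 144 with PQ, and 152 and 151 with NAC. Both treated groups lay under the controls, without passing the test (PQ against control log2 -0.16, adjusted p 0.25). Cox4i2 had 1 count in PQ 1 and 1 in NAC 1. Cox6a1 (gene 12861), the form of subunit 6a used in most tissues, had 144 and 134 CPM in the controls, 153 and 137 with PQ and 127 and 132 with NAC. PQ overlapped control, and NAC lay just below. Ndufa4 (gene 17992), first assigned to complex I, had 99.8 and 95.8 CPM in the controls, 117 and 105 with PQ, and 110 and 113 with NAC. Both treatments lay above the controls by a like amount, 0.18 with PQ (adjusted p 0.21) and 0.19 with NAC (adjusted p 0.20), and Ndufa4l2 had at most 2 counts in a library. Cox6c, chosen for naming after its values were seen, had the widest gap between the controls of any subunit, 98.1 CPM in control 1 and 58.3 in control 2, with 93.2 and 104 with PQ and 78.1 and 73.7 with NAC. In NAC against control it passed as higher without control 1 (0.034) or in the second deposit alone (0.037) and as lower without control 2 (0.026). It also passed as higher with PQ without control 1 (6.4e-05), in the second deposit alone (4.6e-06) and with no filter (0.019), and in PQ against NAC without either control (0.0025), with no filter (0.0038), in the second deposit alone (0.0024) and over the 4 libraries compared (0.0026). The 6 subunits of complex IV called in no comparison ran from -0.16 for Cox4i1 to 0.34 for Cox6c with PQ, and from -0.14 for Cox5b to 0.19 for Ndufa4 with NAC.

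**Figure D5:**
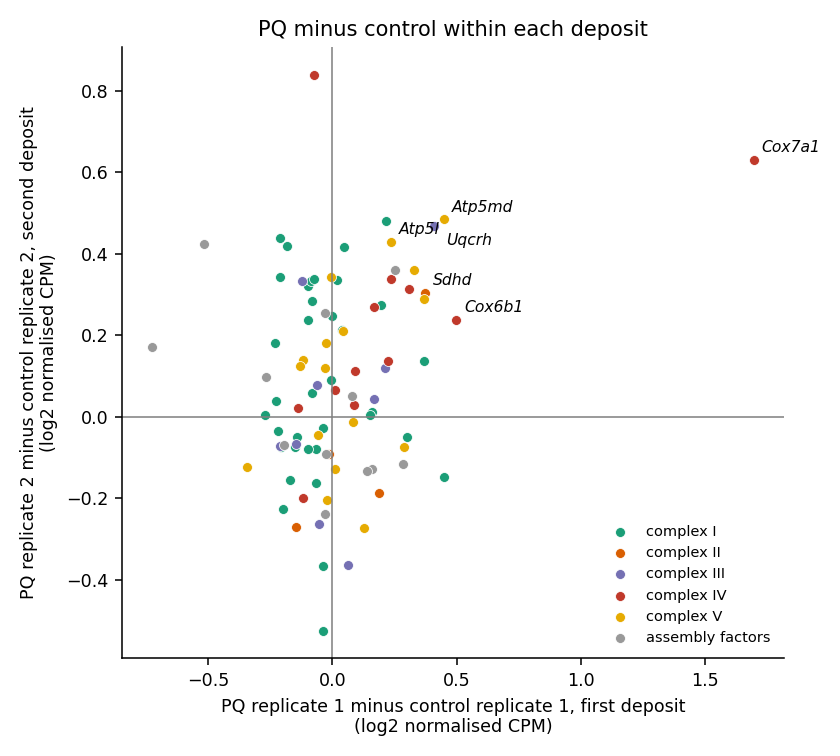
PQ minus control in log2 CPM of each member within the first deposit (horizontal axis) and within the second (vertical axis), coloured by complex, with the 5 members called in PQ against control and Cox7a1 named. The 5 lie above 0 on both axes, from 0.24 to 0.50 in the first deposit and from 0.24 to 0.48 in the second. In all 5 called members both PQ libraries lay above both controls, so being above 0 on both axes was given by that separation.

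Complex V couples a membrane rotor to the catalytic F1 head. edgeR called 2 of 17 higher (11.8%, beside 9.76% of all genes) and 0 lower (beside 9.45%) in PQ against control. In NAC against control it called 0, beside 18.7% of all genes. At an unadjusted p under 0.05, 4 were higher and 1 lower with PQ, beside 1879 and 1823 of 11717 genes. With NAC, 1 was higher and 4 lower, beside 1777 and 1882 of 11717. DESeq2 called 2 higher with PQ and 1 lower with NAC, and limma 4 higher and 1 higher. Atp5md (gene 66477), a small subunit of the membrane part that helps keep the dimers, had 98.5 and 84.3 CPM in the controls, 134.5 and 118 with PQ, and 89.0 and 83.9 with NAC. PQ stood above the others, which overlapped. Atp5md rose by 0.47 in PQ against control (SE 0.106, adjusted p 0.0043) and was higher by 0.55 in PQ against NAC (SE 0.106, adjusted p 0.00059). The difference was 0.45 within the first deposit and 0.48 within the second, and the call was lost without PQ 1 (0.10). Atp5l (gene 27425), subunit g at the interface of the dimer, had 130 and 121.5 CPM in the controls, 154 and 164 with PQ, and 99.7 and 116 with NAC. The groups were apart, in the order NAC, control, PQ. It rose by 0.33 in PQ against control (SE 0.101, adjusted p 0.026), lost without control 2 (0.093), PQ 1 (0.086) or PQ 2 (0.17), and was higher by 0.56 in PQ against NAC (SE 0.101, adjusted p 0.00034) whichever library was left out.

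The F1 part holds the catalytic sites. Atp5b (gene 11947) had 1393 and 1422 CPM in the controls, 1373 and 1235 with PQ, and 1167 and 1196 with NAC. NAC was lowest and lay outside the rest. Its NAC against control change missed the threshold (log2 -0.25, SE 0.087, adjusted p 0.051), and it was called lower by DESeq2 (0.033) and by edgeR with DESeq2's size factors (0.049), with upper quartiles (0.040) or with no filter (0.028). Atp5a1 (gene 11946), the alpha subunit, had 819 and 861 CPM in the controls, 868 and 854 with PQ, and 850 and 834 with NAC, and its log2 fold change was 0.04 with PQ and 0.003 with NAC. The 5 F1 genes had a median of 0.035 with PQ and -0.208 with NAC. The other 12 genes, of the membrane part and peripheral stalk, had 0.057 and -0.046. Atp5d, the delta subunit of F1, was chosen for naming after its values were seen. It was higher by 0.37 in PQ against NAC (adjusted p 0.014). That call was lost without PQ 1 or NAC 1, with the block (0.053) or limma (0.053) and in the second deposit alone.

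Subunit c of the rotor ring has 3 genes that give the same mature protein. Atp5g1 (gene 11951) had 52.6 and 60.6 CPM in the controls, 57.5 and 50.1 with PQ, and 46.9 and 52.7 with NAC, and the groups overlapped. Atp5g2 (gene 67942) had 129 and 119 CPM in the controls, 101 and 110 with PQ, and 117 and 147 with NAC. PQ was lowest there, and the NAC libraries were far apart. It was lower by 0.325 in PQ against NAC (log2 -0.325, SE 0.110, adjusted p 0.031), lost without PQ 1 (0.21), PQ 2 (0.066) or NAC 2 (0.40), with the block (0.075) or limma (0.056) and in the second deposit alone (0.12). Atp5g3 (gene 228033) had 130 and 109 CPM in the controls, 129 and 139 with PQ, and 117 and 117 with NAC, with no call. On the FPKM scale, Atp5g2 at 194 and Atp5g3 at 189 were close, and Atp5g1 stood at 68.9. The 13 subunits of complex V called in no comparison ran from -0.11 for Atp5b to 0.345 for Atp5e with PQ. With NAC they ran from -0.25 for Atp5b to 0.28 for Atp5e. Among them, Atp5mpl and Atp5e were chosen for naming after their values were seen. Atp5mpl missed the threshold with PQ (log2 0.33, adjusted p 0.05). It passed with library totals (0.036), upper quartiles (0.045), limma (0.034) or a mean FPKM of at least 5 (0.043). Atp5e missed it with PQ (adjusted p 0.061) and passed with library totals (0.047) or limma (0.023). Over all 17 the median was 0.042 in PQ against control, -0.063 in NAC against control and 0.138 in PQ against NAC. Within deposits it was 0.009 in the first and 0.124 in the second for PQ minus control, and -0.007 for NAC minus control in the second.

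The 12 assembly factors among the members help build complex I (8 Ndufaf genes) or complex II (4 Sdhaf genes). Sdhaf1 (gene 68332), which helps insert iron-sulfur clusters into SDHB, had 33.4 and 32.5 CPM in the controls, 32.8 and 27.6 with PQ, and 24.9 and 23.4 with NAC. NAC was lowest, as it was for Sdhb. It fell by 0.45 in NAC against control (SE 0.129, adjusted p 0.020), lost without control 1 (0.060), NAC 1 (0.076) or NAC 2 (0.13), with DESeq2 (0.053), with the deposit as a block (0.10) and in the second deposit alone (0.060). edgeR called 0 of the 12 in PQ against control (beside 19.2% of all genes) and 0 in PQ against NAC (beside 31.6%). At an unadjusted p under 0.05 there were 0 and 2. DESeq2 (beside 14.3% and 25.1%) and limma (beside 14.6% and 27.1%) called 0 there too. The other 11, Ndufaf1 to Ndufaf8 and Sdhaf2 to Sdhaf4, had between 3.24 and 43.0 CPM in every library. They ran from -0.315 for Ndufaf6 to 0.31 for Ndufaf1 with PQ and from -0.385 for Ndufaf5 to 0.21 for Ndufaf6 with NAC. The median of the 12 was -0.007 in PQ against control, turning to 0.019 with library totals, -0.097 in NAC against control and 0.176 in PQ against NAC. Within deposits, PQ minus control was -0.028 in the first and -0.009 in the second, and NAC minus control in the second was -0.062.

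Beyond the members, lists of related genes were described in the same way. Their counts stand beside edgeR's shares of all genes, 9.76% higher and 9.45% lower in PQ against control. These shares were 9.01% and 9.64% in NAC against control, and 16.0% and 15.7% in PQ against NAC. Of the genes named from them, Coq2, Coq5, Cs, Gpd2, Mrpl48, Nes, Ogdh, Slc1a2, Timm23, Timm50, Tomm6, Twnk and Vdac3 were chosen after their values were seen. Losses without a library are given beside calls against control described for a named gene, calls printed as counts are not followed singly, and of all 167 calls on these lists 80 were lost without PQ 1, 71 without PQ 2, 75 without NAC 1, 73 without NAC 2, 44 without control 1, 26 without control 2, 75 with the deposit as a block, 80 in the second deposit alone, 53 with limma, 37 with DESeq2 and 30 with library totals. The 13 subunits encoded in mitochondrial DNA were listed in no library, so the partners they form in complexes I, III, IV and V could not be followed.

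Among 8 further assembly factors of complex I, Timmdc1 fell with NAC (log2 -0.37, adjusted p 0.042), a call lost without control 1 (0.095), control 2 (0.078), PQ 1 (0.053), NAC 1 (0.085) or NAC 2 (0.25). Among 6 of complex III, Lyrm7, which hands over the Rieske protein, had 6.33 and 4.63 CPM in the controls, 3.05 and 3.23 with PQ, and 2.5 and 2.08 with NAC. It fell with PQ (log2 -0.80, adjusted p 0.048), lost without control 1 (0.30), PQ 1 (0.23), PQ 2 (0.13), NAC 1 (0.057) or NAC 2 (0.055), and with NAC (log2 -1.25, adjusted p 0.0045), lost without control 1 (0.053). Uqcc3 rose with NAC (log2 0.74, adjusted p 0.0054), also lost without control 1 (0.051). Of 21 assembly factors of complex IV, Cox20 fell with NAC (log2 -0.395, adjusted p 0.030), lost without control 1 (0.19) or NAC 2 (0.28). Cox20 and Cox17, a copper chaperone, were higher in PQ against NAC, lost without PQ 2 (0.080 and 0.16) or NAC 2 (0.14 and 0.19), and for Cox17 also without PQ 1 (0.14) or NAC 1 (0.12). Of 4 factors of complex V, Atpaf1 rose with PQ (log2 0.43, adjusted p 0.034), lost without control 1 (0.15), PQ 1 (0.072) or PQ 2 (0.23). Tmem70 fell with NAC (log2 -0.34, adjusted p 0.049), lost without control 1 (0.16), PQ 1 (0.065), PQ 2 (0.067), NAC 1 (0.057) or NAC 2 (0.33), and was higher in PQ against NAC, lost without PQ 2 (0.11) or NAC 2 (0.17). The most abundant factors of complexes I, III and V, Dmac1 (24.65 FPKM), Uqcc2 (80.2 FPKM) and Tmem242 (59.3 FPKM), passed in no comparison. In the order PQ against control, NAC against control and PQ against NAC, the medians were 0.001, -0.094 and 0.141 for the complex I factors, 0.062, 0.046 and 0.042 for those of complex III, 0.053, -0.077 and 0.133 for complex IV, and 0.054, -0.038 (0.007 with library totals) and 0.205 for complex V.

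Mobile electron carriers and the enzymes that feed them numbered 20, of which 18 were tested and Coq8a and Prodh were under the level. With PQ edgeR called 0 of them (1 higher and 3 lower at an unadjusted p under 0.05, 0 by DESeq2, 1 higher by limma). With NAC, Gpd2 was called higher, lost without any 1 of the 6 libraries (0.053 to 0.18), and Coq3, Coq5 and Coq8b, all of ubiquinone synthesis, fell. Coq3 had 25.2 and 26.2 CPM in the controls, 24.7 and 27.1 with PQ, and 14.9 and 13.6 with NAC, so that NAC stood apart. The call of Coq5 was lost without NAC 1 (0.052) or NAC 2 (0.079). In PQ against NAC 6 were higher, among them Sqor, which oxidises sulfide (log2 0.94, adjusted p 0.0017, whichever library was left out), and 2 lower (Coq2, lost without PQ 1 (0.070), and Gpd2, lost without PQ 1 (0.050) or NAC 1 (0.051)). Cycs, cytochrome c, had 385 and 311 CPM in the controls, 394 and 399 with PQ, and 311 and 294 with NAC, and was higher in PQ against NAC (log2 0.39, adjusted p 0.0064), lost without NAC 2 (0.063). It also passed as higher with PQ without control 1 (0.027) and as lower with NAC without control 2 (0.020). The list's medians were -0.041 with PQ, -0.196 with NAC and 0.144 for PQ against NAC.

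Of 17 TCA cycle enzymes, Idh2 and Suclg2 fell with PQ, whichever library was left out. With NAC, Suclg2 rose, lost without NAC 1 (0.14), and 4 fell. Of those, Idh2 stood whichever library was left out, Ogdh was lost without NAC 1 (0.086) or NAC 2 (0.11), Pdhb without control 1 (0.11), NAC 1 (0.055) or NAC 2 (0.073), and Cs without control 2 (0.21), PQ 1 (0.065), PQ 2 (0.066), NAC 1 (0.16) or NAC 2 (0.17). Medians were -0.001 with PQ (0.026 with library totals), -0.231 with NAC and 0.198 for PQ against NAC, where 5 were higher and Suclg2 was lower. The most abundant, Mdh2 at 225 FPKM, was among the 5 (log2 0.25, adjusted p 0.044), lost without PQ 1 (0.32), PQ 2 (0.064), NAC 1 (0.11) or NAC 2 (0.20). Of 9 carriers and channels of the mitochondrial membranes, edgeR called 0 with PQ (1 higher and 1 lower at an unadjusted p under 0.05, 0 by DESeq2 and limma). Slc25a1, Vdac1 and Vdac3 fell with NAC, the last of these lost without control 1 (0.20) or NAC 2 (0.10), and Vdac3 also passed as lower with PQ without control 2 (0.0036). Their medians were 0.103, -0.220 and 0.320, and in PQ against NAC 5 were higher and 1 lower, with the most abundant, Slc25a4 at 380.5 FPKM, among the 5 (log2 0.32, adjusted p 0.0098), lost without PQ 1 (0.067), PQ 2 (0.057) or NAC 1 (0.080).

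Of 24 import genes, Timm17a and Timm8b rose with PQ, lost without PQ 1 (0.090 and 0.056) and, for Timm8b, without control 2 (0.070) or PQ 2 (0.051). Timm50 fell with PQ (log2 -0.37, adjusted p 0.050), lost without any 1 of the 6 libraries (0.067 to 0.25). With NAC, Hspa9, Timm17a, Timm23 and Tomm6 fell, Timm17a lost without NAC 2 (0.067), Tomm6 without NAC 1 (0.086) and Timm23 without control 1 (0.24), PQ 1 (0.059), PQ 2 (0.061), NAC 1 (0.083) or NAC 2 (0.22). Hspa9, the chaperone that pulls proteins in, had 1732 CPM in control 1 and 1129 in control 2, and passed as lower with PQ without control 2 (4.4e-05). The list's medians were 0.001, -0.150 and 0.140, and PQ against NAC had 4 higher and 1 lower.

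Of 16 regulators of mitochondrial biogenesis, Twnk rose with PQ and Nrf1, Ppargc1b, Tfam and Tfb1m fell. Nrf1, which encodes the factor of the NRF1 letters, had 46.8 and 43.5 CPM in the controls, 36.1 and 35.9 with PQ, and 42.9 and 43.7 with NAC (PQ against control log2 -0.33, adjusted p 0.045). Tfam, which packages and helps transcribe mitochondrial DNA, had 40.8 and 39.8 CPM in the controls, 32.4 and 31.5 with PQ, and 45.1 and 41.8 with NAC (PQ against control log2 -0.33, adjusted p 0.047). Both PQ libraries were the lowest for both genes. Under 17 alternatives Nrf1 kept the call in 3 and Tfam in 2, and both lost it with DESeq2 (0.12 and 0.13), limma (0.056 and 0.085), library totals (0.068 and 0.070) and the block (0.065 and 0.067). For the list, DESeq2 called 0 higher and 2 lower with PQ, and limma 0 and 1. Nrf1 lost the call without control 1 (0.18), PQ 1 (0.20), PQ 2 (0.16), NAC 1 (0.064) or NAC 2 (0.064), and Tfam without control 1 (0.13), control 2 (0.076), PQ 1 (0.18), PQ 2 (0.18), NAC 1 (0.064) or NAC 2 (0.063). Twnk lost its PQ call without control 1 (0.24), PQ 1 (0.14) or PQ 2 (0.13), Ppargc1b without PQ 1 (0.057) or control 2 (0.095), and Tfb1m without control 1 (0.11) or PQ 2 (0.083). Gabpa and Ppargc1a passed in no comparison, though Gabpa passed as lower with PQ without control 2 (0.015) or PQ 2 (0.030) and in PQ against NAC without control 1 (0.037), control 2 (0.037), PQ 2 (0.033) or NAC 2 (0.032). With NAC, Twnk rose, lost without control 1 (0.12) or NAC 2 (0.12), and 2 fell, Ppargc1b, lost without control 2 (0.27), NAC 1 (0.19) or NAC 2 (0.054), and Tfb1m, lost without control 1 (0.24), NAC 1 (0.091) or NAC 2 (0.15). In PQ against NAC 1 was higher and 3 lower, of which Polg (log2 -0.42, adjusted p 0.0068) was lost without PQ 2 (0.081) or NAC 2 (0.069), and Yy1, the most abundant regulator at 55.5 FPKM, passed in no comparison. The list's medians were -0.145 with PQ, -0.056 with NAC and -0.169 for PQ against NAC.

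Ribosomal proteins give a scale for another abundant machinery. Of 78 mitochondrial ribosomal proteins Mrps6 rose with PQ, whichever library was left out, and Mrpl2 and Mrpl48 fell. Mrpl2 lost the call without control 2 (0.15), PQ 1 (0.068), PQ 2 (0.27), NAC 1 (0.057) or NAC 2 (0.055), and Mrpl48 without control 1 (0.11), PQ 1 (0.090) or PQ 2 (0.22). With NAC, 7 fell, the largest change being that of Mrpl38 (log2 -0.55, adjusted p 0.00065, whichever library was left out), and Mrpl52 rose, lost without control 1 (0.051), control 2 (0.095) or NAC 2 (0.24), and PQ against NAC had 14 higher, led by Mrps6 and Mrpl53 (log2 0.79 and 0.64, the second with an adjusted p of 0.0028 and lost without PQ 1 at 0.051), and 3 lower. Medians were -0.026 (0.001 with library totals), -0.153 and 0.090. Of 78 cytosolic ribosomal proteins tested (of 82), Rps27l rose with PQ and 19 fell (24.4%, beside 9.45% of all genes). With NAC 0 rose and 7 fell (8.97%, beside 9.64%). In PQ against NAC Rps27l was higher and 9 were lower (11.5%, beside 15.7%). The medians were -0.201, -0.052 and -0.121. Rpsa led the fall with PQ (log2 -0.39, adjusted p 0.0036, whichever library was left out), and Rps15 the genes lower in PQ against NAC (log2 -0.40, adjusted p 0.0018, whichever library was left out). With NAC, Rps3 (log2 -0.35, adjusted p 0.012) and Rpl31 (log2 -0.35, adjusted p 0.032) were both lost without control 1 (0.11 and 0.36), NAC 1 (0.11 and 0.14) or NAC 2 (0.054 and 0.13), and Rpl23a, the most abundant at 1607 FPKM, passed in no comparison. The 0 higher with NAC is edgeR's, and DESeq2, limma and the unadjusted p under 0.05 also gave 0 higher. However, limma called 6 lower with PQ in place of 19 (beside 6.19% of all genes). With NAC it called 0 lower in place of 7 (beside 6.29%). Respiratory chain subunits had a higher median than the cytosolic ribosomal proteins with PQ and lay between the lists with NAC, differences that were not tested.

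The label of the cells was checked against marker genes. Of 12 neural stem cell markers, 10 passed the level, Hes5 and Prom1 being near 0 at 0.040 and 0.045 FPKM, and Vim was the most abundant at a mean of 2073 FPKM. Summed over the list, the level was 3463 FPKM in control 1, 3531 in control 2, 3794 in PQ 1, 3856 in PQ 2, 2748 in NAC 1 and 2671 in NAC 2, and PQ lay above and NAC below the controls. Vim carries most of that sum, and the median log2 fold change of the 10 tested went the other way, -0.244 with PQ (4 up, 6 down) and 0.086 with NAC (6 up, 4 down). Nes rose and Slc1a3 and Sox2 fell with PQ, and Slc1a3 rose and Nes, Sox2 and Vim fell with NAC. Left-out libraries cost Nes its PQ call (PQ 1 0.081, PQ 2 0.052), Sox2 its PQ call (control 1 0.15, PQ 1 0.12, PQ 2 0.071) and its NAC call (control 1 0.25, NAC 1 0.16, NAC 2 0.086), and Slc1a3 and Nes their NAC calls (PQ 1 0.052 and 0.051, PQ 2 0.053 and 0.052, control 2 0.25 and 0.11, NAC 1 0.16 and 0.13, NAC 2 0.11 and 0.15, and control 1 0.052 for Nes). Of 8 oligodendrocyte progenitor markers, 4 passed, led by Olig1 at 429 FPKM, with Sox10 and Gpr17 near 0. Their sum was 652 and 753 FPKM in the controls, 768 and 666.5 with PQ, and 816 and 926 with NAC, and Olig1 and Pdgfra were called higher with NAC, where the list's median log2 fold change was 0.407. Olig1 lost the call without control 1 (0.18) or NAC 2 (0.23), and Pdgfra without control 1 (0.067) or NAC 2 (0.16), while Olig2 was lower in PQ against NAC (log2 -0.26, adjusted p 0.033), lost without PQ 2 (0.32), NAC 1 (0.12) or NAC 2 (0.13). All 6 astrocyte markers passed, led by Aldoc at 61.9 FPKM, and their sum was 49.95 and 55.0 FPKM in the controls, 53.9 and 57.4 with PQ, and 112 and 113 with NAC. NAC against control called 4 of these higher (Aldoc, Aqp4, Gfap and Slc1a2), and PQ against control called Aldh1l1 higher, lost without PQ 1 (0.091). Of 8 neuronal markers only Map2 passed, at 43.2 FPKM, higher with NAC (log2 0.77), while Dcx, Stmn2 and Neurod1 were near 0 and Rbfox3 was not listed. The neuronal sum was 38.4 and 36.3 FPKM in the controls, 34.1 and 35.2 with PQ, and 65.5 and 59.0 with NAC. Of 9 endothelial and mesenchymal markers Col3a1 alone passed, at 3.93 FPKM and lower with PQ, and the sum was between 4.2 and 5.8 FPKM, with Cldn5 not listed. None of 9 microglia and blood markers passed, their sum was between 0.55 and 1.24 FPKM, led by Cx3cr1 at 0.667 FPKM, and Tyrobp and Hbb-bs were not listed. Most astrocyte markers, Olig1, Pdgfra and Map2 were called higher with NAC, stem cell markers went both ways, and whether cell makeup bears on the subunits was not tested.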

How the data were processed

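RNA-seq libraries of mouse neural progenitor cells (control, PQ and NAC at 48 h, 2 each) were read from the gene tables deposited by the authors, 1 per library, which give for each gene with reads an NCBI gene ID, a transcript length, an expected count (estimated fragments, fractional where reads are shared) and an FPKM. The authors' notes name bcl2fastq 2.17, cutadapt, TopHat2 2.0.11 and Cufflinks 2.1.1 on mm9 for the first deposit and HISAT2 2.0.4, Bowtie2 2.2.5 and RSEM on mm10 for the second, though the columns of all 6 tables are of the type RSEM writes. The study's methods name a stranded mRNA kit and an Illumina sequencer, the second deposit's labels another protocol and sequencer, and whether counting used the strand is not given. Gene IDs were matched to NCBI symbols (99.7% of 17254).

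The test covered genes whose FPKM averaged 1 or more across the 6 libraries. Expected counts were rounded and fitted in edgeR 4.0.16 (quasi-likelihood, TMM factors, all 6 libraries, 3 groups), with Benjamini-Hochberg adjustment over 11717 genes and a threshold of 0.05. All p-values are from edgeR unless another tool is named. Totals of 9680436 to 10698241 counts per library gave a median standard error of 0.108 on a member's log2 fold change. CPM use the TMM factors. Within-deposit differences are of log2 CPM.

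Alternatives were DESeq2 1.42.0, limma 3.58.1 on log2(FPKM + 1) and log2(FPKM + 0.1), DESeq2's size factors, upper quartiles, library totals, a mean FPKM of at least 5, no filter, a fold change of at least 1.5, the deposit as a block, the second deposit alone, the 4 libraries compared, Ndufa4 in complex I, and each library left out. R 4.3.3, Python 3.11.15, pandas 2.3.3 and matplotlib 3.10.9 were used, and the fit was tested on simulated data. Promoters are from RefSeq (GRCm38.p6).

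The members and lists were chosen with earlier results of these data known. Genes named in full are the most abundant of each complex and up to 2 with the largest called change in each complex and comparison. Those changes were taken only where both libraries of a group lay on the same side of both of the other. For them, separate groups were a condition and not a finding. Also named in full are paralog groups, Ndufs1, Ndufv1, the Sdh genes, Cyc1, Uqcrfs1, Atp5a1, Atp5b and called assembly factors. Each related list adds its most abundant gene and up to 2 with the largest called change in each comparison, with Ppargc1a, Nrf1, Gabpa and Tfam. Related lists are the subunits of mitochondrial DNA, assembly factors of complexes I, III, IV and V, electron carriers and feeders, TCA cycle enzymes, carriers and uncoupling, biogenesis regulators, import machinery, mitochondrial and cytosolic ribosomal proteins, and markers of neural stem cells, oligodendrocyte progenitors, neurons, astrocytes, endothelial and mesenchymal cells, and microglia and blood. No list was tested as a set. Results for 3 genes of the members and lists are not reported here, though they remain in the counts, sums and medians.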

Additional observations from a re-analysis of the deposited data

How the results depend on the processing

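For members called in a comparison (31 results), 435 of 526 values under the alternatives kept their direction and their call and 91 kept the direction alone. For other named genes (167 results) these were 2088 and 735 of 2823, and no called value changed direction. The count of members called in PQ against control (5, 19.2% of all genes) became 9 with library totals (19.2%) and 10 with limma at either pseudocount (14.6% and 14.8%). With a fold change of at least 1.5 it was 0 in PQ against control, 1 in NAC against control (6) and 2 in PQ against NAC (20). The share of all genes passing that fold is not given here, so these counts cannot be set against it. With the deposit as a block, NAC against control gave 4 members (6), beside 14.4% of all genes (18.7%), and PQ against NAC 12 members, beside 24.8% (31.6%), and a subunit median of 0.114 (0.155). Of the 31 member calls, 10 were lost with the block, 12 in the second deposit alone, 7 with limma, 4 with DESeq2 and 3 with library totals. The subunit median in NAC against control (-0.086) was -0.041 with library totals and -0.040 and -0.041 with limma. With Ndufa4 in complex I, the complex IV median in PQ against NAC was 0.311 (0.276). Leaving out each library, the members called ranged from 0 to 7 in PQ against control, from 3 to 12 in NAC against control and from 11 to 23 in PQ against NAC (7.39% to 18.8%, 10.7% to 18.1% and 20.0% to 35.9% of all genes), and the subunit median from -0.028 to 0.105, from -0.154 to -0.069 and from 0.134 to 0.158. In those fits, and in the second deposit alone, a group of 1 library is assumed to vary like the others. The fold threshold adds a condition, and for the other alternatives the cause was not tested. Cox7a1 and the genes under the level had few counts, and depth was not tested as a reason.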
